A study of Rattus norvegicus with 12 samples.

Results

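The genes described here carry and control Wnt signalling: the ligands, their receptors, the secreted proteins that block or boost them, and the intracellular parts and targets of the pathway. Members were the probe sets whose platform annotation gave exactly 1 gene symbol, equal to 1 of 46 listed genes. That rule found 40 genes on 42 probe sets, of 14324 genes and 27342 probe sets in all. Tcf7l1 had 3 probe sets and counts once, by its lowest-numbered probe set. Wnt11, Fzd3, Fzd7, Fzd10, Dvl2 and Tcf7l2 were matched by no probe set and are not analysed here.

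RNA came from monolayers of cardiomyocytes isolated by enzymatic digestion from hearts of 2-day-old Sprague-Dawley rats, all of 1 litter. After 3 days in culture, 6 cultures received DEHP, di(2-ethylhexyl) phthalate, a plasticizer of flexible medical plastics, at 50 µg/mL in 0.1% DMSO for 3 days, and 6 Control cultures received 0.1% DMSO alone. Each culture was measured on 1 array, and the labels give the arrays of a group as biological replicates. Because all cells came from 1 litter, no p-value below covers the difference from litter to litter.

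The deposited values are ratios to each probe set's own median over the 12 arrays, and every value below is the log2 of such a ratio. They hold no expression level, so members cannot be ranked by abundance, and the label of cardiomyocyte could not be checked against marker levels. Where the 6 DEHP values lie apart from the 6 Control values, the median falls midway between the groups, so the innermost value of one group mirrors that of the other around 0. In bulk RNA, fewer cells of a type and less RNA per cell cannot be told apart.

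Wnt proteins are secreted, lipid-modified growth factors that bind frizzled receptors. With the co-receptors Lrp5 and Lrp6 they stop the destruction of beta-catenin, which then acts on genes with TCF and LEF factors. Other receptors such as Ror2 pass the signal to the cytoskeleton and to calcium without beta-catenin. In the heart the pathway is known for its part in early cardiac development and in scar formation after injury.

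Under DEHP, secreted Wnt inhibitors of the frizzled-related family mostly fell, led by Sfrp1, while Sfrp2 of the same family rose. The receptors parted, with Fzd2, Fzd4 and Fzd8 lower and Fzd6, Fzd1 and the R-spondin receptor Lgr4 higher. Wnt5a was the only 1 of 7 measured ligands that passed in the comparison of all 12 arrays, and it rose. The feedback inhibitor Nkd2 fell 2.76-fold, whereas its relative Nkd1 and the target Axin2 did not pass.

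Of the 40 genes, 15 passed at an adjusted p under 0.05 (limma, Benjamini-Hochberg over all probe sets), or 37.5%, where 24.6% of all genes passed. Among these, 5 rose, or 12.5%, against a background of 14.4%, and 10 fell, or 25.0%, against 10.2%. The groups did not overlap in 14 of the 40, and in 16.9% of all genes. A log2 fold of at least 0.5 in size together with a pass was reached by 11 members, against 7.34% of all genes. The members had a median log2 fold of −0.10, and all genes one of −0.02.

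**Figure D1:**
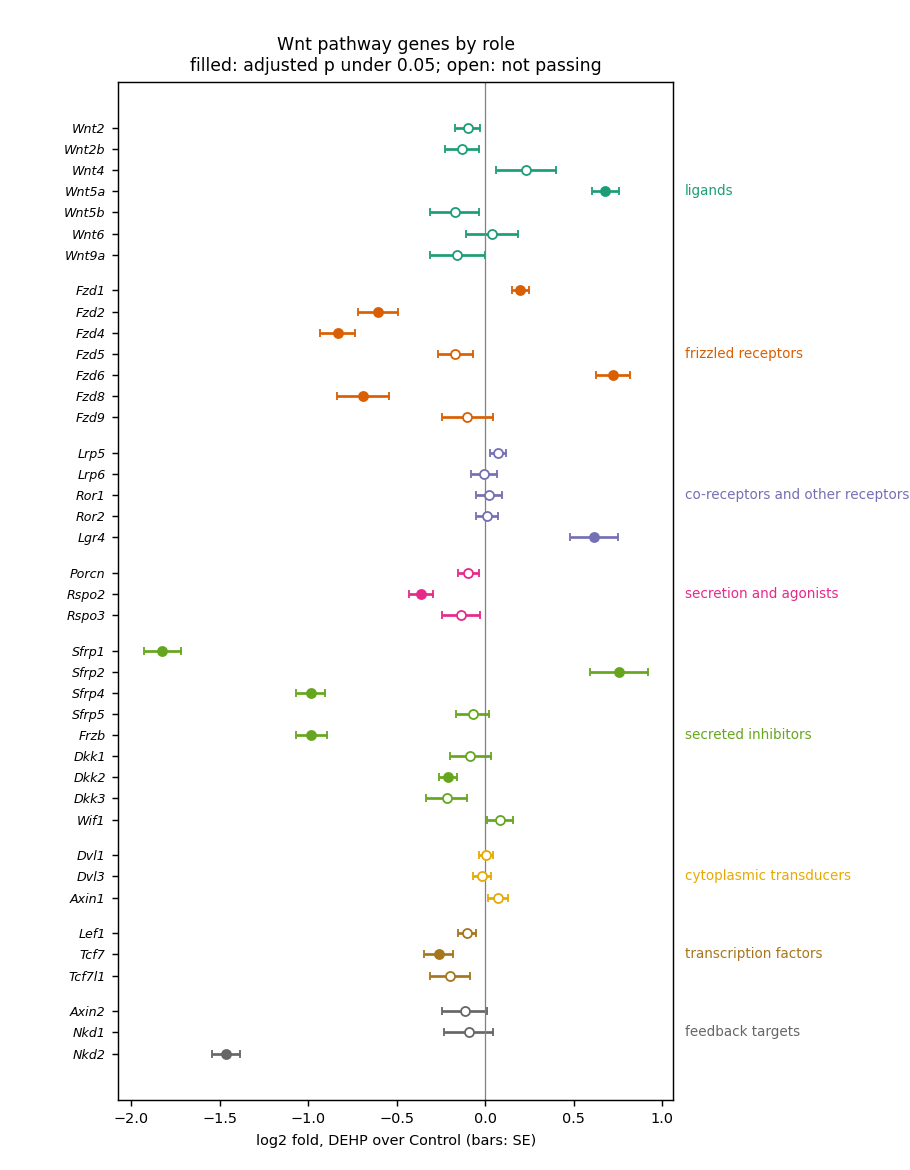
Log2 fold of DEHP over Control for each of the 40 Wnt pathway genes on the x axis, grouped by role, with SE bars and n = 6 arrays a group. Filled points passed the limma test; Sfrp1 (−1.82) and Nkd2 (−1.46) lie farthest left, and Sfrp2 (0.76), Fzd6 (0.72) and Wnt5a (0.68) farthest right.

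DEHP replicate 6 and Control replicate 5 stood apart from the other arrays. Over all probe sets the SD of the log2 ratios was 0.27 in DEHP replicate 6 and 0.37 in Control replicate 5, whereas it was 0.15 to 0.19 elsewhere. DEHP replicate 6 held the lowest or highest DEHP value for 67.5% of the 40 members and 51.8% of all genes, and DEHP replicate 5 for 37.5% of members and 51.5% of all genes. Among Control arrays, replicate 5 did so for 67.5% of members and 75.1% of all genes, and replicate 1 for 57.5% of members and 40.9% of all genes. Without these arrays 16 members passed, 6 higher and 10 lower, and 14 of the 15 called over all arrays were among them. Of all probe sets, 5780 passed without these arrays, against 5016 with them. Counts of any list without these arrays stand against that larger background. Results that rest on them are given with and without them. These fits kept DEHP replicate 5, whose deviations from its group mean correlated at 0.77 with those of Control replicate 5. A deviation shared by these arrays would then stay in the DEHP group only. Values without the arrays are therefore not taken as corrected values.

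**Figure D2:**
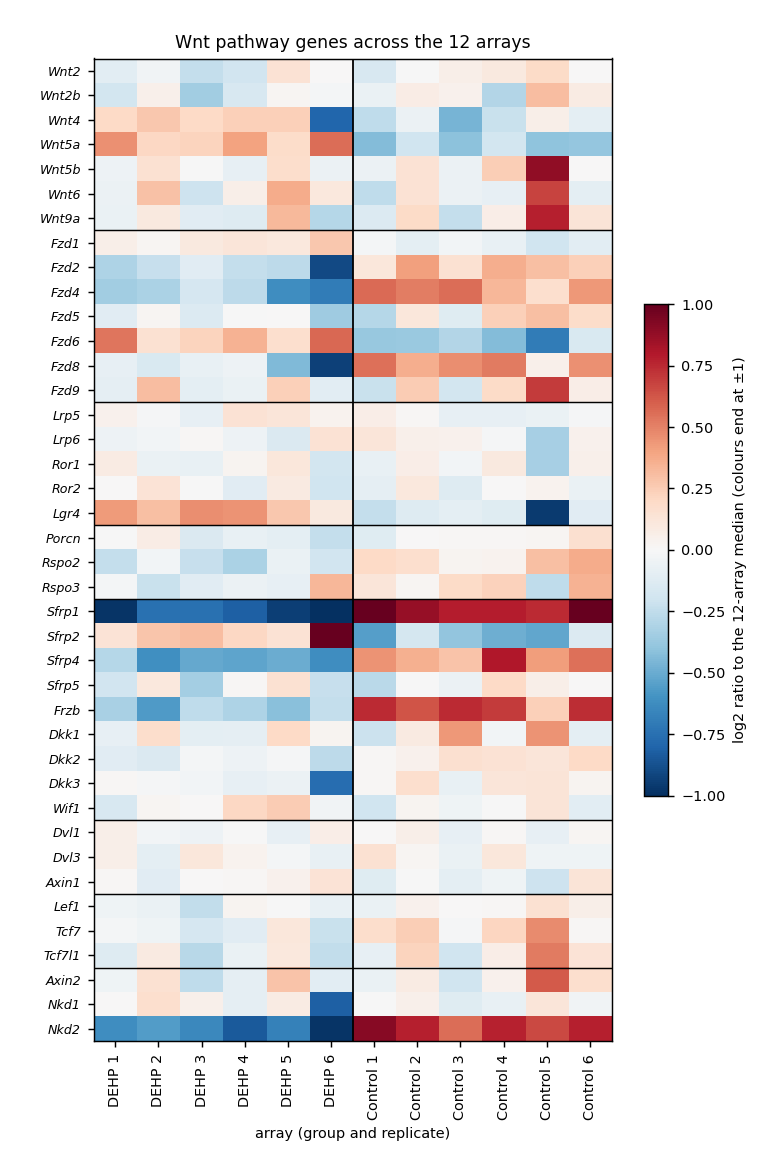
Log2 ratio of each Wnt pathway gene (rows, in the order of the roles, parted by lines) in each array (columns, DEHP left of Control), with red above and blue below the median of the 12 arrays. The rows of Sfrp1 and Nkd2 are blue in all 6 DEHP arrays and red in all 6 Control arrays, and Control replicate 5 is red at Wnt5b, Wnt6 and Wnt9a.

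Among the ligands, Wnt5a, best known for signalling without beta-catenin, rose 1.60-fold. Its log2 ratio had a lowest value of 0.18, a median of 0.32 and a highest value of 0.56 in DEHP arrays, against −0.44, −0.40 and −0.18 in Control arrays. All 6 DEHP values lay above all 6 Control values. The log2 fold was 0.68 ± 0.08 (SE, n = 6 arrays per group), with a limma adjusted p of 3.18e-05.

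The other 6 ligands did not pass over all arrays, with log2 folds from −0.17 to 0.23 and adjusted p from 0.41 to 0.89. Wnt4, a ligand needed in kidney and gonad development in the mouse, turned on 1 array. Its log2 ratio was −0.80 in DEHP replicate 6, and between 0.20 and 0.27 in the other DEHP arrays, against −0.46 to 0.06 in Control arrays. Over all arrays the log2 fold was 0.23 (95% interval −0.14 to 0.60), with a limma adjusted p of 0.42. Without DEHP replicate 6 it was 0.40, with a limma adjusted p of 0.00315, and without that array and Control replicate 5 it was 0.45, with an adjusted p of 0.000382.

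Wnt5b, Wnt6 and Wnt9a had their highest value in Control replicate 5. Wnt5b had a log2 ratio of 0.88 in that array and at most 0.24 in the other Control arrays. Without DEHP replicate 6 and Control replicate 5 its log2 fold was −0.02, against −0.17 over all arrays. Wnt2 and Wnt2b, ligands of early heart and lung in the mouse, had log2 folds of −0.10 (95% interval −0.25 to 0.06) and −0.13 (−0.34 to 0.07). Their highest values, too, were in Control replicate 5. Without DEHP replicate 6 and Control replicate 5 their log2 folds were −0.08 and −0.09.

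Frizzled genes, which encode the membrane receptors that bind Wnts, passed in 5 of 7 cases, 2 higher and 3 lower, where 24.6% of all genes passed, and the counts without DEHP replicate 6 and Control replicate 5 were the same. Fzd4, also the receptor for the retinal vessel factor Norrin, fell 1.78-fold. Its log2 ratio ran from −0.70 through a median of −0.33 to −0.17 in DEHP arrays, against 0.17, 0.47 and 0.56 in Control arrays. The groups lay apart, and the log2 fold was −0.83 ± 0.10 (limma adjusted p 5.76e-05).

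Fzd8, whose extracellular domain has been a model for how a Wnt grips its receptor, fell 1.61-fold. DEHP arrays held log2 ratios of −0.93, −0.12 and −0.05 as lowest, median and highest, and Control arrays 0.05, 0.46 and 0.55. DEHP replicate 6 was the lowest of all, and Control replicate 5 the lowest Control. Over all arrays the log2 fold was −0.69 ± 0.15 (limma adjusted p 0.00448), and −0.63 without these arrays (adjusted p 4.88e-05).

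Fzd2, a receptor that can bind Wnt5a, fell 1.52-fold. Its lowest, median and highest log2 ratios were −0.90, −0.25 and −0.11 in DEHP arrays, against 0.11, 0.27 and 0.41 in Control arrays. The −0.90 came from DEHP replicate 6, and the other DEHP arrays reached down to −0.31. Over all arrays the log2 fold was −0.61 ± 0.11 (limma adjusted p 0.00205), and −0.49 without DEHP replicate 6 (adjusted p 8.36e-05).

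Fzd6, a receptor tied to planar cell polarity in the mouse, went the other way and was 1.65-fold higher. DEHP arrays gave 0.15, 0.28 and 0.58 as lowest, median and highest log2 ratio, and Control arrays −0.70, −0.37 and −0.15. No Control array reached a DEHP value, and the log2 fold was 0.72 ± 0.10, with a limma adjusted p of 0.000166. Fzd1 rose by less, 1.15-fold (log2 fold 0.20 ± 0.05, limma adjusted p 0.00828). Its groups lay apart by a narrow gap, with a lowest DEHP value of 0.023 and a highest Control value of −0.023. Fzd5 (−0.17 ± 0.10) and Fzd9 (−0.10 ± 0.14) did not pass.

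**Figure D3:**
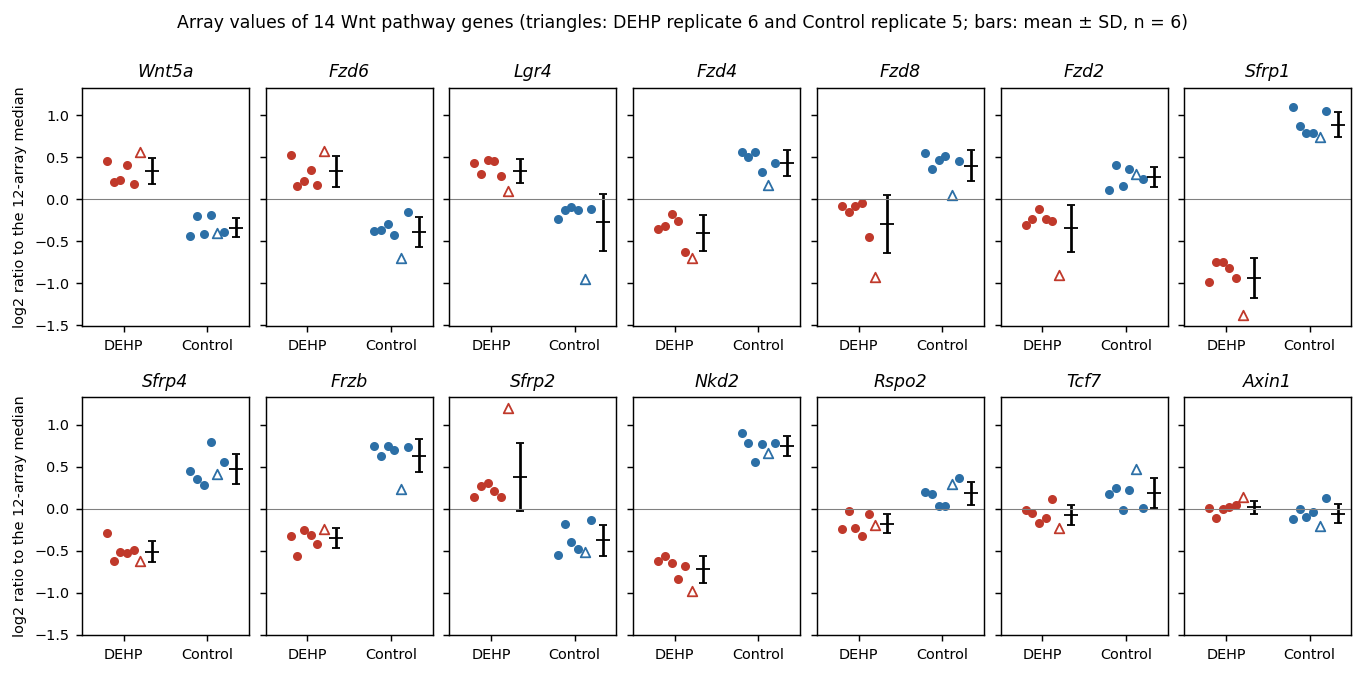
Log2 ratio of 14 Wnt pathway genes in each array, DEHP left of Control in every panel, with bars for mean ± SD over 6 arrays a group and triangles for DEHP replicate 6 and Control replicate 5. The groups do not overlap in the panels of the first 12 genes, from Wnt5a to Rspo2, and overlap for Tcf7 and Axin1.

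The co-receptors and kinase-like receptors differed little. Lrp5 and Lrp6, which pair with frizzleds in the beta-catenin branch, had log2 folds of 0.07 (95% interval −0.03 to 0.17) and −0.01 (−0.16 to 0.15). Ror1 and Ror2, receptors for Wnt5a, had log2 folds of 0.02 (−0.14 to 0.18) and 0.01 (−0.12 to 0.14). The intervals of these 4 genes leave out a log2 change of 0.5 in either direction.

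Lgr4, a receptor for the R-spondins, rose 1.53-fold. Its log2 ratio was 0.10, 0.36 and 0.46 at the lowest, median and highest DEHP array, against −0.95, −0.13 and −0.10 in Control arrays. The −0.95 was that of Control replicate 5, and the other Control arrays reached down to −0.24. Over all arrays the log2 fold was 0.61 ± 0.14 (limma adjusted p 0.00614), and without Control replicate 5 it was 0.48 (adjusted p 0.000175).

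R-spondins are secreted proteins that keep Wnt receptors at the cell surface. Rspo2 fell 1.29-fold, with log2 ratios of −0.32, −0.21 and −0.03 in DEHP arrays, against 0.03, 0.18 and 0.37 in Control arrays as lowest, median and highest. The groups lay apart by a narrow gap, and the log2 fold was −0.36 ± 0.07 (limma adjusted p 0.00233). Rspo3 did not pass over all arrays (−0.14 ± 0.11, adjusted p 0.44), but had a log2 fold of −0.28 without DEHP replicate 6 and Control replicate 5 (limma adjusted p 0.0052). Rspo3 in DEHP replicate 6, at 0.33, stood above the −0.22 to −0.02 of the other DEHP arrays. Porcn, the enzyme that attaches the lipid to Wnts, had a log2 fold of −0.09 ± 0.06 and did not pass.

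Secreted inhibitors passed in 5 of 9 cases, 4 lower and 1 higher, against 24.6% of all genes. Their median log2 fold was −0.21, and −0.08 without DEHP replicate 6 and Control replicate 5, where 4 were again lower and 1 higher. Sfrp1 was the most changed of all 40 genes, 3.54-fold lower. It encodes a secreted protein that carries the Wnt-binding cysteine-rich domain of the frizzleds without their membrane part. The log2 ratio was −1.38, −0.88 and −0.75 at the lowest, median and highest DEHP array, against 0.75, 0.83 and 1.10 in Control arrays. A gap of more than 1 log2 unit parted the groups, and the log2 fold was −1.82 ± 0.11 (limma adjusted p 1.61e-07). DEHP replicate 6 was the lowest array, and without it and Control replicate 5 the log2 fold was −1.76.

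Sfrp4, another frizzled-related inhibitor, fell 1.98-fold. DEHP arrays had log2 ratios of −0.62, −0.52 and −0.29 as lowest, median and highest, and Control arrays 0.29, 0.44 and 0.80. Neither group reached into the other, and the log2 fold was −0.99 ± 0.08 (limma adjusted p 3.17e-06).

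Frzb, the founding member of the family, first found in cartilage, also fell 1.98-fold. Its log2 ratios were −0.56, −0.32 and −0.24 in DEHP arrays, against 0.24, 0.72 and 0.75 in Control arrays. Control replicate 5 gave the 0.24, well under the 0.63 to 0.75 of the other Control arrays. Over all arrays the log2 fold was −0.98 ± 0.09 (limma adjusted p 5.14e-06), and −1.06 without Control replicate 5.

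Sfrp2 moved against its relatives and was 1.69-fold higher. The lowest, median and highest log2 ratios were 0.14, 0.24 and 1.2 in DEHP arrays, against −0.55, −0.44 and −0.14 in Control arrays. DEHP replicate 6 alone gave the 1.2, and the other DEHP arrays lay between 0.14 and 0.31. The log2 fold was 0.76 ± 0.16 (limma adjusted p 0.00556), and 0.59 without DEHP replicate 6 (adjusted p 0.00024). Sfrp5, the remaining family member, had a log2 fold of −0.07 ± 0.10 and did not pass.

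Dickkopf proteins act on the co-receptors Lrp5 and Lrp6. Dkk2 fell 1.16-fold (log2 fold −0.21 ± 0.05, limma adjusted p 0.00921). Its groups lay apart by a narrow gap, with a highest DEHP value of −0.014 and a lowest Control value of 0.014. Dkk1, an inhibitor that takes part in head formation in the mouse, had a log2 fold of −0.08 (95% interval −0.33 to 0.17). Dkk3, a divergent relative, had −0.22 ± 0.12 over all arrays and −0.10 without DEHP replicate 6, where its log2 ratio was −0.76. Wif1, which binds Wnts directly, had a log2 fold of 0.08 ± 0.07.

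None of the 3 measured cytoplasmic transducers passed in limma, nor had one an unadjusted p under 0.05. Dvl1 and Dvl3, the dishevelled proteins that receive the signal from frizzleds, had log2 folds of 0.003 (95% interval −0.08 to 0.09) and −0.02 (−0.13 to 0.09). Axin1, the scaffold of the complex that marks beta-catenin for destruction, had log2 ratios of −0.11, 0.01 and 0.14 in DEHP arrays, against −0.21, −0.07 and 0.13 in Control arrays. The groups overlapped throughout, and the log2 fold was 0.07 ± 0.06 (limma adjusted p 0.45).

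Of the DNA-binding partners of beta-catenin, Tcf7 fell 1.2-fold. Its lowest, median and highest log2 ratios were −0.22, −0.08 and 0.11 in DEHP arrays, against −0.01, 0.20 and 0.47 in Control arrays. The groups overlapped, and the call (log2 fold −0.26 ± 0.08, limma adjusted p 0.042) was lost in 12 of 22 other settings. Leaving out any 1 of DEHP replicates 1, 2, 3, 4 and 6 or of Control replicates 1, 2, 4 and 5 ended it, with adjusted p up to 0.092. Without DEHP replicate 6 the adjusted p was 0.086, and without Control replicate 5 it was 0.052. The direction held in all 22 settings. The smallest limma adjusted p among them, 0.00197, came with the replicate number as a block. Lef1 did not pass (−0.10 ± 0.05, adjusted p 0.22). The probe sets of Tcf7l1, a factor that mostly represses, gave log2 folds of −0.20, −0.15 and −0.24, of which the last alone passed (limma adjusted p 0.034).

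Axin2, Nkd1 and Nkd2 are feedback inhibitors, and Axin2 and Nkd1 are widely used as readouts of beta-catenin activity. Nkd2, which binds dishevelled, fell 2.76-fold. It had log2 ratios of −0.98, −0.66 and −0.56 as lowest, median and highest in DEHP arrays, against 0.56, 0.77 and 0.91 in Control arrays. The groups were more than 1 log2 unit apart, and the log2 fold was −1.46 ± 0.08 (limma adjusted p 7.85e-08). Without DEHP replicate 6 and Control replicate 5 it was −1.43.

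Nkd1 did not follow. Its log2 ratio was −0.82 in DEHP replicate 6 and between −0.09 and 0.16 in the other DEHP arrays, against −0.12 to 0.12 in Control arrays. The log2 fold was −0.09 (95% interval −0.39 to 0.21), and 0.05 without DEHP replicate 6. For Axin2 the lowest, median and highest log2 ratios were −0.25, −0.07 and 0.29 in DEHP arrays, against −0.20, 0.06 and 0.61 in Control arrays. The groups overlapped, and the log2 fold was −0.12 (95% interval −0.39 to 0.16), or 0.004 without DEHP replicate 6 and Control replicate 5. The 0.61 was that of Control replicate 5, and the 0.29 that of DEHP replicate 5, which was kept.

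The promoters of these feedback genes and of Tcf7 are shown because TCF and LEF factors can bind the letters CTTTGAT. These letters were searched on both strands in the 300 bases around each start (250 before, 50 after). Other forms of the TCF and LEF site were not searched and are not marked. The sequences are RefSeq's, build GRCr8, 5′ to 3′ on the gene's strand, with the motif in capitals. Axin2 lies at chr10:94398535-94398834 (+), Nkd1 at chr19:34722797-34723096 (−), Tcf7 at chr10:36954230-36954529 (−) and Nkd2 at chr1:31272282-31272581 (+).
Axin2: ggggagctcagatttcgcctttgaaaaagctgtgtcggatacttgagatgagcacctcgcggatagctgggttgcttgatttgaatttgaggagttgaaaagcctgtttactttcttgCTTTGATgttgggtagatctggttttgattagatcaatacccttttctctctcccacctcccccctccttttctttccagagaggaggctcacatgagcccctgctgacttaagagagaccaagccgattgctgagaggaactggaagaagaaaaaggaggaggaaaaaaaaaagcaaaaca
Nkd1: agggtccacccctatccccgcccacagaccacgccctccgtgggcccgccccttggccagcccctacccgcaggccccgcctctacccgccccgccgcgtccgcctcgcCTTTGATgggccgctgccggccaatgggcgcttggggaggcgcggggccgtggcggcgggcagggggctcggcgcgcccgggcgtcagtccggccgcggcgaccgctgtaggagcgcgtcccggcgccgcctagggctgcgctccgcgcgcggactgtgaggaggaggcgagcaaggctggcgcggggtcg
Tcf7: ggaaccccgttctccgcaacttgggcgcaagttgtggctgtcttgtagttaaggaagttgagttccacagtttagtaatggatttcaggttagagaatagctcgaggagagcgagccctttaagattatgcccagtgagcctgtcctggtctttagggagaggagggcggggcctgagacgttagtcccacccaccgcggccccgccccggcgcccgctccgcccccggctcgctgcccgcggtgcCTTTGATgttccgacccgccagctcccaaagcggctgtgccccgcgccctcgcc
Nkd2: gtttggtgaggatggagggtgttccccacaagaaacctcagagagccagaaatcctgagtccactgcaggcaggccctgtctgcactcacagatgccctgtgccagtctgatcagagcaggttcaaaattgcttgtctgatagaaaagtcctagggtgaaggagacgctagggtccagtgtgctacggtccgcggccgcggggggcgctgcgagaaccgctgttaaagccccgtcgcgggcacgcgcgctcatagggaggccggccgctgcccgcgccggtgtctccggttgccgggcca
The motif occurred once in Axin2, Nkd1 and Tcf7, starting 132, 141 and 4 bases before the transcription start, and not in the Nkd2 window. Promoter sequences were matched for 29 of the 40 members, and these 3 were the only ones with it. Of all 33469 promoters in the table, 3.63% held the motif. A match describes letters and not binding, and the search says nothing of the bases outside these windows.

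Other genes of the pathway were listed in 5 groups, with 104 measured of 128 listed, of which 9 rose and 18 fell. The 26.0% that passed is near the 24.6% of all genes. None of 10 other Wnt ligands passed at an adjusted p under 0.05 or at an unadjusted p under 0.05 in limma, with log2 folds from −0.18 to −0.05. The smallest p-values were those of Wnt8b (−0.18 ± 0.12), Wnt10b (−0.15 ± 0.13), Wnt8a (−0.10 ± 0.10), Wnt3 (−0.13 ± 0.14) and Wnt10a (−0.11 ± 0.12). All 10 log2 folds were negative over all arrays, but 6 were positive and 4 negative without DEHP replicate 6 and Control replicate 5, with a range of −0.06 to 0.09. Their mean log2 ratio was 0.60 in Control replicate 5, against −0.16 to 0.09 in the other Control arrays. In DEHP arrays this mean ran from −0.17 to 0.25. With the replicate number as a block, which keeps all arrays, all 10 log2 folds stayed negative. Among 16 other secreted and membrane regulators, 4 fell and the remaining 12 did not pass. The 25.0% that passed is near the 24.6% of all genes, of which 10.2% fell. The glypicans Gpc4 (−0.95 ± 0.13) and Gpc3 (−0.85 ± 0.12), surface proteoglycans that hold Wnts, fell most. Rspo1 (−0.47 ± 0.10), like Rspo2 an R-spondin, and Wls (−0.29 ± 0.07), the carrier that brings Wnts to the surface, fell too. Lgr5, the next by p, had a log2 fold of −0.12 ± 0.05 and did not pass.

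Of 26 genes that control or assist beta-catenin, 2 rose and 1 fell, or 11.5% passing against 24.6% of all genes. Csnk2a1 (0.31 ± 0.06), a casein kinase subunit, and Tnks2 (0.25 ± 0.05), a tankyrase that marks axin for removal, rose, and the corepressor Tle1 fell (−0.21 ± 0.07). Without DEHP replicate 6 and Control replicate 5 Tle1 had a limma adjusted p of 0.082. Gsk3b (0.18 ± 0.07, adjusted p 0.087) and Bcl9l (0.15 ± 0.06, adjusted p 0.13) did not pass. Ctnnb1, beta-catenin itself, named here outside the rule after its value was seen, had a log2 fold of −0.04 (95% interval −0.19 to 0.11).

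In the planar polarity and calcium branch 1 of 24 genes rose and 4 fell, or 20.8% passing against 24.6% of all genes. By direction, 4.2% rose against 14.4% of all genes, and 16.7% fell against 10.2%. Without DEHP replicate 6 and Control replicate 5, 8 fell, and 5780 of all probe sets passed, against 5016 over all arrays. Prickle1 (−1.05 ± 0.17), a core polarity protein, Fat1 (−0.72 ± 0.05), an atypical cadherin, Rock2 (−0.50 ± 0.11), a kinase of the actin cytoskeleton, and the Wnt receptor Ryk (−0.24 ± 0.06) fell. Daam1 (0.34 ± 0.07), a formin that acts below dishevelled, rose. The log2 fold of Prickle1 was −0.86 without DEHP replicate 6 and Control replicate 5.

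Other genes known as Wnt targets in some tissue passed in 15 of 28 cases (53.6%, against 24.6% of all genes), 6 higher and 9 lower, and 6 higher and 13 lower without DEHP replicate 6 and Control replicate 5. The list was drawn up with earlier results of these data known, and many of its genes answer to other pathways. Edn1 (−2.79 ± 0.08), which encodes endothelin-1, Bmp4 (−1.25 ± 0.11), a bone morphogenetic protein, and Ccnd1 (−0.55 ± 0.04), cyclin D1, fell. Gja1 (1.30 ± 0.09), connexin 43, and Vegfa (0.62 ± 0.06), an endothelial growth factor, rose.

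**Figure D4:**
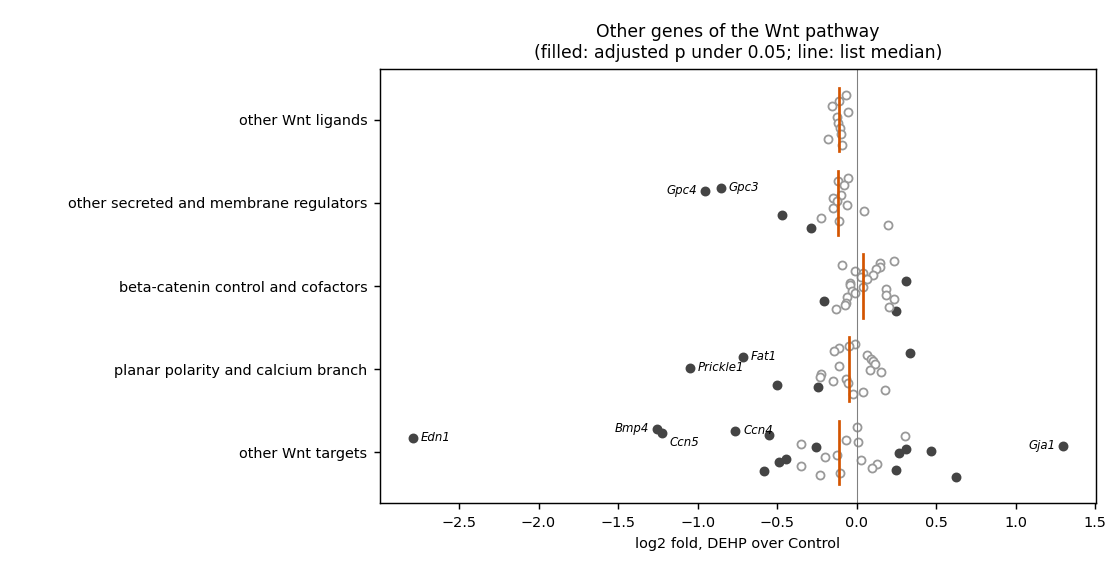
Log2 fold of DEHP over Control (x axis) for 104 further Wnt pathway genes in 5 lists, with filled points past the limma test, lines at the list medians and names at sizes of 0.7 or more. The ligand points lie in a narrow band just under 0, and the target points run from Edn1 at −2.79 to Gja1 at 1.30.

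Markers of other cell types moved in the same arrays. Of 49 measured markers, cardiomyocyte genes included, 77.6% passed at an adjusted p under 0.05 in limma, against 24.6% of all genes. Higher were 34.7% of the markers, against 14.4% of all genes, and lower 42.9%, against 10.2%. By list the share that passed ran from 50% in leukocyte markers to 100% in smooth muscle and myofibroblast markers. All 7 measured genes of smooth muscle and myofibroblasts were lower under DEHP and passed, and their mean log2 ratio was −1.12 in DEHP replicate 6 and −0.81 to −0.62 in the other DEHP arrays, against 0.58 in Control replicate 5 and 0.62 to 0.76 in the other Control arrays. Cnn1 (−3.49 ± 0.13), Kcnmb1 (−1.59 ± 0.08) and Myh11 (−1.68 ± 0.10) had the smallest p. Of 11 fibroblast markers 6 fell and 4 rose, with Mfap5 at −1.83 ± 0.09, Pdgfra at 0.90 ± 0.07 and Postn at 0.47 ± 0.04, and their mean was −0.36 in DEHP replicate 6 and −0.13 to −0.06 in the other DEHP arrays, against 0.02 in Control replicate 5 and 0.09 to 0.15 in the other Control arrays. Among epicardial and mesothelial markers 5 of 7 rose and 1 fell, or 5 and 2 without DEHP replicate 6 and Control replicate 5 (list means of 0.10 to 0.19 in DEHP arrays and −0.15 to 0.03 in Control arrays), with Wt1 at 0.29 ± 0.05, Gpm6a at 0.48 ± 0.10 and Aldh1a2 at −0.53 ± 0.12.

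Among 7 endothelial genes 3 were higher and 1 lower, with means of −0.23 in DEHP replicate 6 and 0.08 to 0.43 in the other DEHP arrays, against −0.26 in Control replicate 5 and −0.20 to 0.09 in the other Control arrays. With DEHP replicate 6 and Control replicate 5 left out, 4 were higher and 1 lower. They were led by Flt1 (−0.74 ± 0.10), Tie1 (0.58 ± 0.11) and Emcn (0.64 ± 0.15). Of 8 leukocyte markers 2 rose and 2 fell, with means of 0.15 in DEHP replicate 6 and −0.15 to 0.02 in the other DEHP arrays, against −0.26 in Control replicate 5 and −0.08 to 0.17 in the other Control arrays. Without these 2 arrays 2 rose and 5 fell, where more of all probe sets passed as well (5780, against 5016 over all arrays). The smallest p-values over all arrays were those of Csf1r at −0.41 ± 0.06, of Itgam at 0.53 ± 0.09 and of Cd68 at 0.51 ± 0.11. Among 9 cardiomyocyte genes 3 were higher and 4 lower, with means of −0.23 in DEHP replicate 6 and 0.06 to 0.22 in the other DEHP arrays, against −0.19 in Control replicate 5 and −0.07 to 0.07 in the other Control arrays. The counts were the same without these 2 arrays. Myh6 (1.67 ± 0.12), Ryr2 (1.13 ± 0.10) and Nppa (−0.80 ± 0.04) had the smallest p. Acta2, Pecam1, Kdr, Vwf, Upk3b and Lrrn4 had no probe set under the naming rule and are not analysed here. Whether a marker is near 0 in level is not held in the ratios, and the part of these cell types in the Wnt results was not tested.

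**Figure D5:**
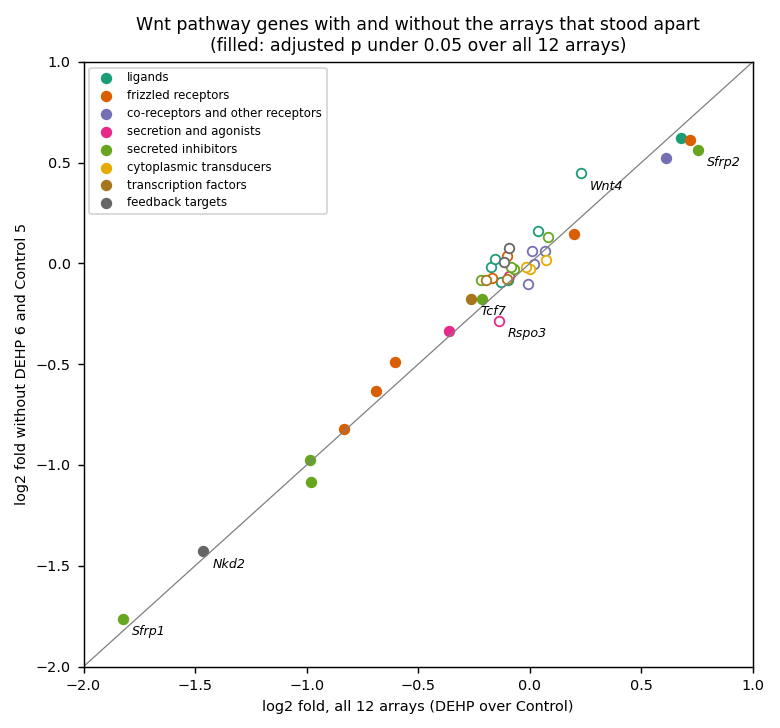
Log2 fold of each Wnt pathway gene without DEHP replicate 6 and Control replicate 5 (y axis) against that over all 12 arrays (x axis), coloured by role, with the line of equality. Sfrp1 and Nkd2 lie close to the line at the lower left, and Wnt4 lies above it, at 0.23 over all arrays and 0.45 without the 2 arrays.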

How the data were processed

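RNA of 12 cultures was measured on Affymetrix arrays, 1 per culture, and per the submitters' processing notes the authors used RMA, of unstated version. The values as deposited are ratios on a linear scale, and each probe set's median on the log2 scale was 0 to within 1e-06. Column medians ran from 0.99 to 1.02, and no other normalization was applied. Probe sets were named through GEO's platform annotation (15097 with 1 symbol, 323 with several, 11922 with none). Entrez identifiers were looked up in RefSeq's table of GRCr8, which held 15067 and changed 0 symbols.

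DEHP was compared with Control by limma 3.58.1 in R 4.3.3 (lmFit, eBayes, two-sided, Benjamini-Hochberg over 27342 probe sets). Errors after ± are SE of the log2 fold, and intervals are 95%, both from that fit. The fit was first tested on simulated data. The number of arrays limits the precision.

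The members and lists were chosen with earlier results of these data known. Values by array are given for members that passed with a log2 fold of at least 0.5 in size, or, in a role with none, for the member with the smallest p. Values of other members by array, such as Wnt4, Nkd1 and Axin2, were added after they were seen. Counts of the further lists without the arrays that stood apart were chosen after seeing the data. Of each further list the 5 genes (markers: 3) with the smallest p are named. The platform has no build named in the sources used here, so gene coordinates are given for the printed promoters alone. Alternatives were quantile normalization, median centring, array weights, robust eBayes, treat at a fold of 1.2, an adjusted p under 0.01, the mean of a gene's probe sets, probe sets with 1 symbol, the replicate number as a block, and arrays left out. Plots used matplotlib 3.10.9.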

Additional observations from a re-analysis of the deposited data

Results flagged for a closer look

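In 12 of 80 groups of 6 arrays, 1 array lay far from the other 5, by a ratio of gap to range above 0.625. Chance alone gives about 1 in 20, and the groups share arrays. The share of such cases over all genes was not computed, so they are not read as particular to these genes. Of the 12 cases, 7 were in DEHP replicate 6 and 4 in Control replicate 5.

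DEHP replicate 6 was far below the other DEHP arrays for Wnt4 (−0.80, others 0.20 to 0.27), Fzd2 (−0.90, others −0.31 to −0.11), Sfrp1 (−1.38, others −0.98 to −0.75), Dkk3 (−0.76, others −0.08 to 0.01) and Nkd1 (−0.82, others −0.09 to 0.16). It was far above them for Sfrp2 (1.2, others 0.14 to 0.31) and Rspo3 (0.33, others −0.22 to −0.02). Control replicate 5 was far below the other Control arrays for Lgr4 (−0.95, others −0.24 to −0.10), Frzb (0.24, others 0.63 to 0.75) and Lrp6 (−0.33, others −0.02 to 0.12), and far above them for Wnt5b (0.88, others −0.06 to 0.24). Lef1 was low in DEHP replicate 3 (−0.25, others −0.08 to 0.03).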

How the results depend on the processing

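Of 15 called members, 7 kept direction and call in all 22 other settings: Wnt5a, Fzd4, Fzd6, Sfrp1, Sfrp4, Frzb and Nkd2. Fzd1, Fzd2, Fzd8, Lgr4, Rspo2, Sfrp2 and Dkk2 lost the call only against a minimum fold of 1.2 (treat), and Tcf7 in 12 settings. Of the members not called, Wnt4 and Rspo3 passed with array weights and without the arrays that stood apart, Wnt4 also without DEHP replicate 6, and Tcf7l1 with the mean of its probe sets and with the replicate block. With treat, 2 members were higher and 5 lower. Leaving out 1 array at a time gave 5 to 6 members higher and 9 to 10 lower, and 4211 to 5556 of all probe sets passed, against 5016 over all arrays. All probe sets passing numbered 7614 with array weights, 1182 with treat and 3238 at an adjusted p under 0.01. The replicate number was no pairing by the labels. Same-numbered arrays correlated in their deviations at 0.07 (replicate 6, the only pair under 0.1) to 0.77 (replicate 5). The deviations of unlike-numbered arrays were not compared, so an effect shared by same-numbered arrays was not tested. The replicate block gave 5 members higher and 11 lower (Tcf7l1, adjusted limma p 0.045), and 6541 probe sets.

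A change of sign was seen in 10 members, none of them called. Without DEHP replicate 6 and Control replicate 5 the log2 fold was 0.022 for Wnt9a, 0.038 for Fzd9, −0.0053 for Ror1, −0.026 for Dvl1, 0.0045 for Axin2 and 0.077 for Nkd1. Array weights gave −0.039 for Ror1, −0.0014 for Ror2, −0.012 for Dvl1 and 0.0023 for Nkd1, quantile normalization −0.018 for Ror1 and −0.0050 for Dvl1, and median centring 0.00085 for Lrp6. With 1 array left out the log2 fold ran from −0.023 to 0.16 for Wnt6, −0.17 to 0.011 for Fzd9, −0.070 to 0.022 for Lrp6, −0.039 to 0.054 for Ror1, −0.018 to 0.048 for Ror2, −0.011 to 0.019 for Dvl1, −0.041 to 0.0065 for Dvl3 and −0.15 to 0.051 for Nkd1. The cause was not tested. Levels are not held in the ratios, so dim probe sets could not be set aside.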
